A study of Mus musculus with 8 samples.

Results

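Whole lungs of mice that had breathed ozone were compared with whole lungs of mice that had breathed filtered air, taking 2 closely related C3H substrains together. Of the 8 oligonucleotide arrays of the series, all 8 were used: 4 had been hybridised with ozone lung and 4 with air lung, and the array titles decided on which side each one stood. The ozone side held 2 arrays of C3H/HeJ (HeJ) and 2 of C3H/HeOuJ (HeOuJ), and the air side held the same numbers of each. For HeOuJ, both the ozone and the air exposure are labelled as lasting 72 h. For HeJ the labels give no duration, and for neither substrain do they give an ozone concentration or the age or sex of the mice. Both sides share the C3H background, and HeJ carries a mutation of the endotoxin receptor that HeOuJ does not. The question asked here was the average one: which transcripts differed between ozone and air when each substrain counted equally.

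Ozone is an oxidant gas that reacts within the fluid lining the airways and alveoli, and it injures ciliated cells of the airways and thin alveolar type 1 cells. Neighbouring cells then divide to replace those that were lost, while the epithelium secretes defence proteins and white blood cells enter the tissue. The title of the series names the leakiness of the airways after ozone, which depends on the epithelial junctions and on this repair.

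Each array reported 12488 probe sets. The values are deposited intensities on a linear scale, and a probe set was tested when it lay above a floor of 69.6 on at least 2 of 8 arrays, which 10953 of the 12422 non-control probe sets did. Array medians ran from 351 to 386. The tissue label fits the club cell secretory protein Scgb1a1, which read 40184 to 68065 on ozone arrays and 40168 to 62463 on air arrays. The 2 HeOuJ ozone arrays stood apart from the other arrays: on the first principal component, which held 30.7% of the variance, they scored 53.2 and 19.3 and no other array scored above 0.54. For the actin control probe sets, the 5' signal divided by the 3' signal, a sign of RNA integrity, was 0.766 and 0.756 on these arrays. The HeJ ozone arrays read 0.505 and 0.530, the HeJ air arrays 0.498 and 0.432, and the HeOuJ air arrays 0.598 and 0.603. Nothing in the labels ties the arrays of a group to separate animals, and the p-values below therefore cover the spread between these arrays alone, part of which may be technical.

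On average over the substrains, 2 probe sets passed an adjusted p of 0.05 in limma with Benjamini-Hochberg adjustment, 0.0183% of those tested, and both were higher in ozone. At an unadjusted p under 0.05 there were 1013 probe sets, or 9.25%, of which 516 (4.71%) were higher and 497 (4.54%) lower. All 4 ozone arrays lay above all 4 air arrays for 220 probe sets (2.01%), and all 4 lay below for 134 (1.22%), so the 2 sides did not overlap for 354 (3.23%). Of all probe sets tested, 48.7% had the same sign in HeJ as in HeOuJ. No probe set passed for the difference between the 2 ozone effects, where 1252 (11.4%) had an unadjusted p under 0.05. When the substrains were instead assumed to share 1 ozone effect, so that any difference between them counted as error, no probe set passed and 747 (6.82%) had an unadjusted p under 0.05.

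Reg3g, an antibacterial lectin that epithelium secretes, was the named gene that rose in ozone. Its intensities were 803 and 874 on the HeJ ozone arrays and 1401 and 1313 on the HeOuJ ozone arrays, against 493 and 562 on the HeJ air arrays and 250 and 286 on the HeOuJ air arrays. Every ozone array was higher than every air array, in each substrain and across both. The mean was 1098 ± 303 in ozone and 398 ± 153 in air (SD over 4 arrays of both substrains each), and the log2 fold change was 1.51 (SE 0.15, adjusted p = 0.0359 in limma), a 2.84-fold rise. The effect was 0.67 in HeJ and 2.34 in HeOuJ on the log2 scale, and their difference of 1.67 did not pass (adjusted p = 0.156). A second, dimmer Reg3g probe set was also higher, with a log2 fold change of 1.03 (SE 0.33), but did not pass. The call for Reg3g was lost when any of the 8 arrays was left out (adjusted p from 0.0744 to 0.264), when the substrains were assumed to share 1 effect (adjusted p = 0.41), and when the 5'/3' ratio of the control probe sets entered the model (log2 fold change 1.69, adjusted p = 0.879). As whole lung was measured, here and below, more cells of a type and more RNA per cell cannot be told apart.

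The other probe set that rose is annotated to several genes and is left unnamed. It read 3165 and 3814 on HeJ ozone arrays and 6572 and 6963 on HeOuJ ozone arrays, against 2684 and 2353 on HeJ air arrays and 2548 and 2381 on HeOuJ air arrays. The 4 ozone arrays again lay above all air arrays. The log2 fold change was 0.96 (SE 0.10, adjusted p = 0.0359 in limma), and it too lost its call without any 1 array (adjusted p from 0.0744 to 0.264).

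**Figure D1:**
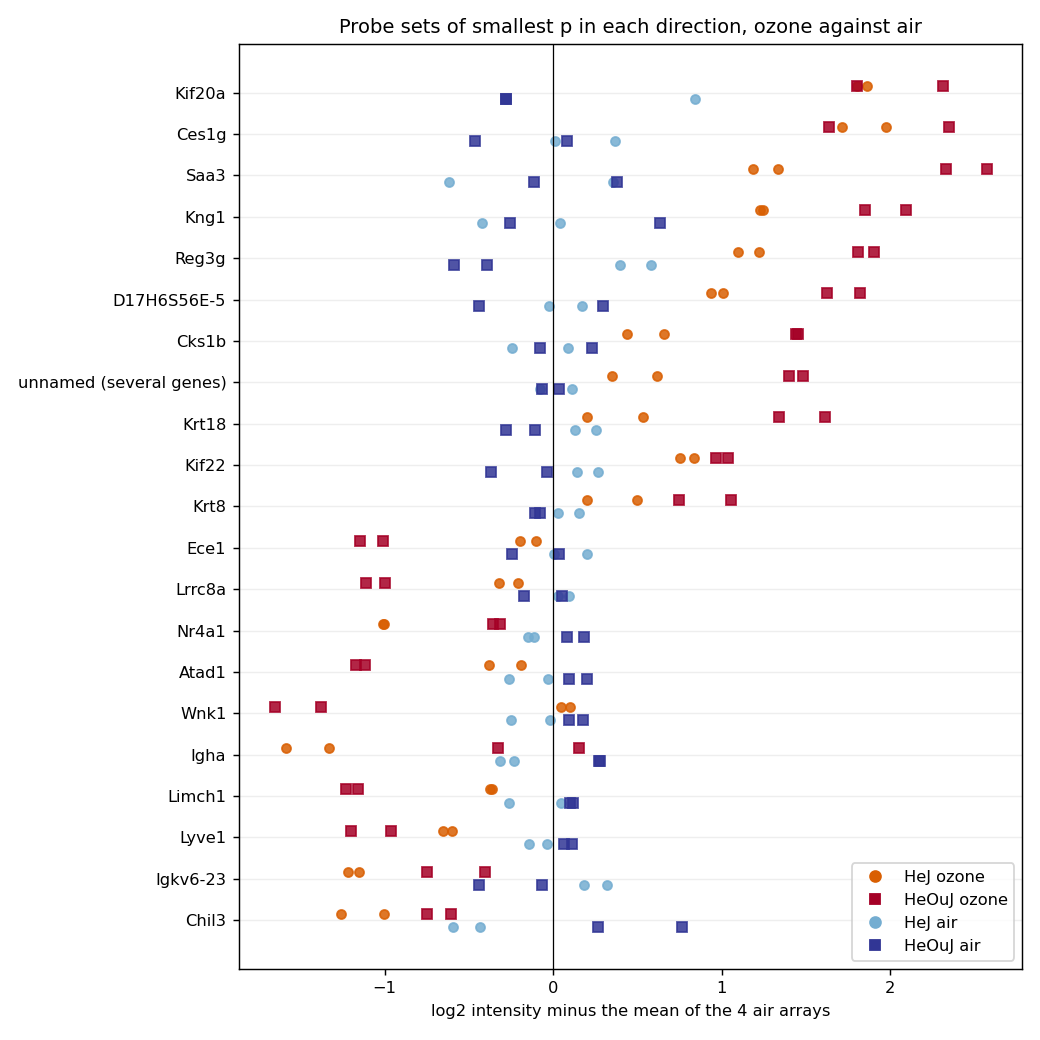
Each point is 1 array, placed by its log2 intensity minus the mean of the 4 air arrays, for the 10 named probe sets of smallest p in each direction and for the unnamed probe set of several genes; ozone arrays are drawn above air arrays in each line, and round and square symbols mark HeJ and HeOuJ. Reg3g and the unnamed probe set are the 2 that passed; for Krt18 and Wnk1 the HeOuJ ozone arrays lie apart from the air arrays and the HeJ ozone arrays overlap them.

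Below Reg3g, the named probe sets of smallest p on the higher side were Saa3, D17H6S56E-5, Krt18, Ces1g, Kif20a, Cks1b, Krt8, Kif22 and Kng1, and none of these passed. Saa3, a serum amyloid made in inflamed tissue during the acute phase, came nearest. It read 979 and 1086 on HeJ ozone arrays and 2562 and 2167 on HeOuJ ozone arrays, against 551 and 280 on HeJ air arrays and 397 and 558 on HeOuJ air arrays. All ozone arrays lay above all air arrays, and the log2 fold change of 1.86 (SE 0.23) was the third largest of these. Its adjusted p was 0.0544 in limma, and leaving out each array gave log2 fold changes from 1.61 to 2.10. Ces1g, a carboxylesterase that hydrolyses esters of lipids and drugs, averaged 370.5 ± 86.6 in ozone and 97.6 ± 23 in air (SD, 4 arrays each), with no overlap. Its log2 fold change was 1.92 (SE 0.29, adjusted p = 0.0959 in limma), and the substrains were alike in size, at 1.65 in HeJ and 2.19 in HeOuJ. Kng1, the kininogen from which bradykinin is cut, averaged 294 ± 88.7 in ozone and 92.7 ± 39 in air (SD, 4 arrays each), a log2 fold change of 1.60 (SE 0.29). For D17H6S56E-5 the log2 fold change was 1.35 (SE 0.18), and the arrays did not overlap.

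Acute phase and mucosal defence genes were followed as a list. Of 28 acute phase genes tested, 20 were higher and 8 lower, with a median log2 fold change of 0.15, beside 0.01 over all 7629 genes tested. The median was 0.02 in HeJ and 0.37 in HeOuJ. It was 0.05 without array 1b of HeJ ozone and 0.06 without array 1a of HeOuJ ozone, with 16 higher each time, and 0.05 with the 5'/3' ratio of the controls in the model, where 18 were higher. For 4 of the 28 genes every ozone array lay above every air array, as for 165 of the 7629 genes, and Reg3g was the single member that passed. Ltf, the iron-binding lactoferrin of neutrophil granules and secretions, read 631 to 768 on ozone arrays and 450 to 526 on air arrays. These ranges did not overlap, and the log2 fold change of 0.50 (SE 0.15) did not pass. Lcn2, which withholds iron from bacteria by binding their siderophores, read 899 and 918 on HeJ ozone arrays and 2695 and 2387 on HeOuJ ozone arrays, against 1296 and 980 on HeJ air arrays and 1405 and 1571 on HeOuJ air arrays. It was thus lower in HeJ ozone than in HeJ air and higher in HeOuJ ozone than in HeOuJ air, and its mean log2 fold change was 0.23 (SE 0.12). The difference between the substrains did not pass (adjusted p = 0.184 in limma). Cd14, the co-receptor that hands endotoxin to its receptor, differed by 0.23 on the log2 scale (SE 0.11), and Timp1, an inhibitor of matrix metalloproteinases, by 0.01, which turned to -0.018 under median centring.

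Among 13 club and secretory cell markers, 9 were higher and 4 lower (median 0.13 on the log2 scale). With the 5'/3' ratio in the model 7 were higher and the median was 0.02, and leaving out each array gave medians from 0.04, without array 1a of HeJ ozone, to 0.24, without array 1a of HeOuJ air. The trefoil peptide Tff2, secreted with mucus, read 240 and 243 on HeJ ozone arrays and 224 and 265 on HeOuJ ozone arrays, against 182 and 70.8 on HeJ air arrays and 15.8 and 48.6 on HeOuJ air arrays. The ozone arrays were close to each other and all above the air arrays, of which the 2 of HeOuJ lay below the floor. Its log2 fold change of 1.45 (SE 0.32) did not pass. Bpifb1, a secreted lipid-binding protein of the airway, differed by 0.33 on the log2 scale (SE 0.13), and Scgb1a1, the main product of club cells, by 0.13, which turned to -0.03 under quantile normalization. The summed intensity of the 13 markers ran from 130890 to 187961 on ozone arrays and from 124840 to 168604 on air arrays.

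Of the 46 gene lists, that of mitosis and G2/M had the largest median difference. Cells that enter mitosis raise a common set of genes for chromosome condensation, the spindle, the mitotic kinases and cytokinesis, and cells that copy their DNA raise those for the replication fork and for nucleotide supply. Of 46 mitosis and G2/M genes tested, 41 were higher in ozone and 5 lower. The median log2 fold change was 0.57, beside 0.01 over all genes, and it was 0.37 in HeJ and 0.59 in HeOuJ. No member passed on its own. At an unadjusted p under 0.05, 18 were higher and 0 lower, as were 349 and 363 of all 7629 genes. For 15 of the 46 every ozone array lay above every air array, as for 165 of all genes, and for 0 every ozone array lay below. The list was higher in both substrains for 35 genes and lower in both for 1, beside 1968 and 1727 of all 7629 genes. Leaving out any 1 array kept the median between 0.45 and 0.56 and the number of higher genes between 38 and 41. With the 5'/3' ratio of the controls in the model, 32 of 46 were higher and the median was 0.42.

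**Figure D2:**
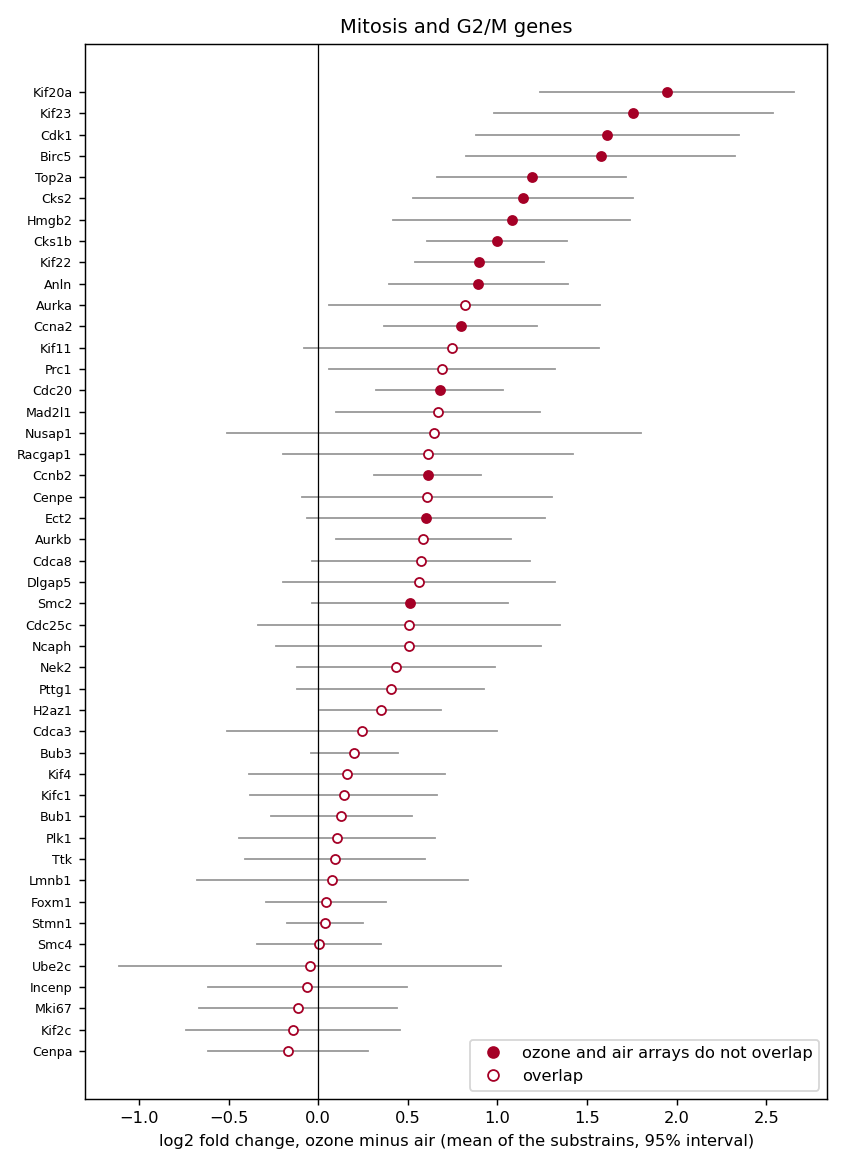
The log2 fold change of each of 46 mitosis and G2/M genes, ozone minus air as the mean of the substrains, with its 95% interval from limma; filled points mark the 15 genes whose ozone and air arrays did not overlap. 41 points lie to the right of 0, with Kif20a at 1.95 at the top and the lowest at -0.17.

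The 5 members shown next are those of smallest p among members with an upstream sequence at hand, so their ozone effect decided the choice. The bases just upstream of their genes are printed because mitotic genes are known to share 2 short promoter motifs. These are the CCAAT box, CCAAT, to which NF-Y binds, and the cell cycle homology region (CHR), TTTGAA, through which the DREAM and MuvB complexes silence such genes in resting cells and activate them before mitosis. The 4 genes with both motifs are set beside Kif23, which lacks the CHR here. Each line gives the 250 bases before the annotated start from RefSeq (GRCm38.p6), 5' to 3' on the strand of the gene, and capitals mark either motif on either strand.
Cks1b: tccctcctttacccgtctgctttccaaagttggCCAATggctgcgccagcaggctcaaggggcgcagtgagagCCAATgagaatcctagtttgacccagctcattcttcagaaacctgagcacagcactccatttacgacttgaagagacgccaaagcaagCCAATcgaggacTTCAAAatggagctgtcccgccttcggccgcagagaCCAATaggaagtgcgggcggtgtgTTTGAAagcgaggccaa
Kif22: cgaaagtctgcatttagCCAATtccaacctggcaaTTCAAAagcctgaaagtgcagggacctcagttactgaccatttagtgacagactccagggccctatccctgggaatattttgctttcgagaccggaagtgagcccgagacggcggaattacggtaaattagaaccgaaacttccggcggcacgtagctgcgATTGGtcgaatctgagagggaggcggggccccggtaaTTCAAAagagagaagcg
Top2a: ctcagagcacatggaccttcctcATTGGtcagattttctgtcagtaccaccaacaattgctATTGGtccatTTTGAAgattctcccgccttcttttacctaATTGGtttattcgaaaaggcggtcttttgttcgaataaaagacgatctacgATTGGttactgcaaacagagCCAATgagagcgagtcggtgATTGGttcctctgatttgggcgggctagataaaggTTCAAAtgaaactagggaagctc
Cdk1: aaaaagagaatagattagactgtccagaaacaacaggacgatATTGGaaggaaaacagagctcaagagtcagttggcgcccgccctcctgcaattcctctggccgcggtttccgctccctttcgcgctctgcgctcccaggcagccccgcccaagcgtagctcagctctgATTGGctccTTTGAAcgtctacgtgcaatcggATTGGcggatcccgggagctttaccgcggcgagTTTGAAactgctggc
Kif23: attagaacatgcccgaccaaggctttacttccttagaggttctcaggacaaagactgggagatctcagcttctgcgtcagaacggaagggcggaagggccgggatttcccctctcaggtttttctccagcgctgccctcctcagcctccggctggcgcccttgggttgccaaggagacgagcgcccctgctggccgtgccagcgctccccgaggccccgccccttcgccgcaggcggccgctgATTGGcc
The windows lie at chr3:89418292-89418541 for Cks1b, chr7:127042421-127042670 for Kif22, chr11:99024190-99024439 for Top2a, chr10:69352913-69353162 for Cdk1 and chr9:61946800-61947049 for Kif23, all on the minus strand. Cks1b, Kif22, Top2a and Cdk1 held 2 CHR matches each and at least 2 CCAAT boxes, and the window of Kif23 held 1 CCAAT box and 0 CHR matches. A window was found for 36 of the 46 genes tested. Of these, 29 (80.6%) held a CCAAT box, 15 (41.7%) a CHR and 14 (38.9%) both. Over all 27025 genes of the promoter table the shares were 37.5%, 18.3% and 7.34%. Matches of the 2 motifs can share at most 1 letter, at their ends. A match describes the sequence and is not a site of binding.

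The values of these genes were as follows. Cdk1, the kinase that drives entry into mitosis, read 394 and 332 on HeJ ozone arrays and 537 and 658 on HeOuJ ozone arrays, against 232 and 128 on HeJ air arrays and 189 and 94.3 on HeOuJ air arrays. The groups did not overlap, and the log2 fold change was 1.61 (SE 0.32, adjusted p = 0.249 in limma). Cks1b, a small subunit that binds Cdk1, read 620 and 531 on HeJ ozone arrays and 1073 and 1067 on HeOuJ ozone arrays, against 416 and 331 on HeJ air arrays and 461 and 372 on HeOuJ air arrays. Its log2 fold change was 1.00 (SE 0.17, adjusted p = 0.177 in limma). Top2a, the topoisomerase that untangles sister chromatids, read 208 to 248 on ozone arrays and 46.8 to 156 on air arrays, with both HeOuJ air arrays below the floor. Its log2 fold change was 1.19 (SE 0.23). Kif22, a motor that moves chromosomes along microtubules, averaged 785 ± 68.5 in ozone and 425 ± 77.4 in air (SD, 4 arrays each), a log2 fold change of 0.90 (SE 0.16). Kif23 and Kif20a are motors of the central spindle that act in cytokinesis. Kif20a read 296 and 307 on HeJ ozone arrays and 295 and 420 on HeOuJ ozone arrays, against 51.8 and 151 on HeJ air arrays and 51.3 and 52.6 on HeOuJ air arrays. As 3 of the 4 air arrays lay below the floor, the size of its log2 fold change, 1.95 (SE 0.31), depends on that floor. A second Kif20a probe set lay at the floor on 5 of 8 arrays and gives no usable fold.

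The other members whose arrays did not overlap were Kif23, Birc5, Cks2, Ccna2, Ccnb2, Cdc20, Anln, Hmgb2, Smc2 and Ect2, which are named after their values were seen. Their log2 fold changes lay between 0.51 for Smc2 and 1.76 for Kif23. Birc5, or survivin, and the cyclins Ccna2 and Ccnb2 had 1.58, 0.80 and 0.61, and Cdc20, which activates the ubiquitin ligase that ends mitosis, had 0.68. Mki67, a common marker of dividing cells, had a log2 fold change of -0.11 (SE 0.24) at its brighter probe set but one of 0.79 (SE 0.26) at its other probe set. The DNA replication and G1/S list had a smaller median: 39 of 48 genes were higher and 9 lower, with a median of 0.24 (0.11 in HeJ and 0.36 in HeOuJ), while with the 5'/3' ratio in the model 28 of 48 were higher and the median was 0.06. Leaving out each array gave medians from 0.13, without array 1b of HeOuJ air, to 0.28. Mcm7, a subunit of the replicative helicase, read 451 to 931 on ozone arrays and 386 to 397 on air arrays. Pcna, the sliding clamp of the polymerases, read 1758 to 3084 on ozone arrays and 1225 to 1536 on air arrays. Neither pair of ranges overlapped, and the log2 fold changes of 0.69 (SE 0.17) for Mcm7 and 0.64 (SE 0.18) for Pcna did not pass. Cdc6, which loads the helicase, had 0.79 (SE 0.29) with overlap, made of 1.47 in HeJ and 0.12 in HeOuJ. Ccnd1, the cyclin of early G1, had 0.09 (SE 0.11), and 0.44 (SE 0.19) at a dimmer probe set.

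**Figure D3:**
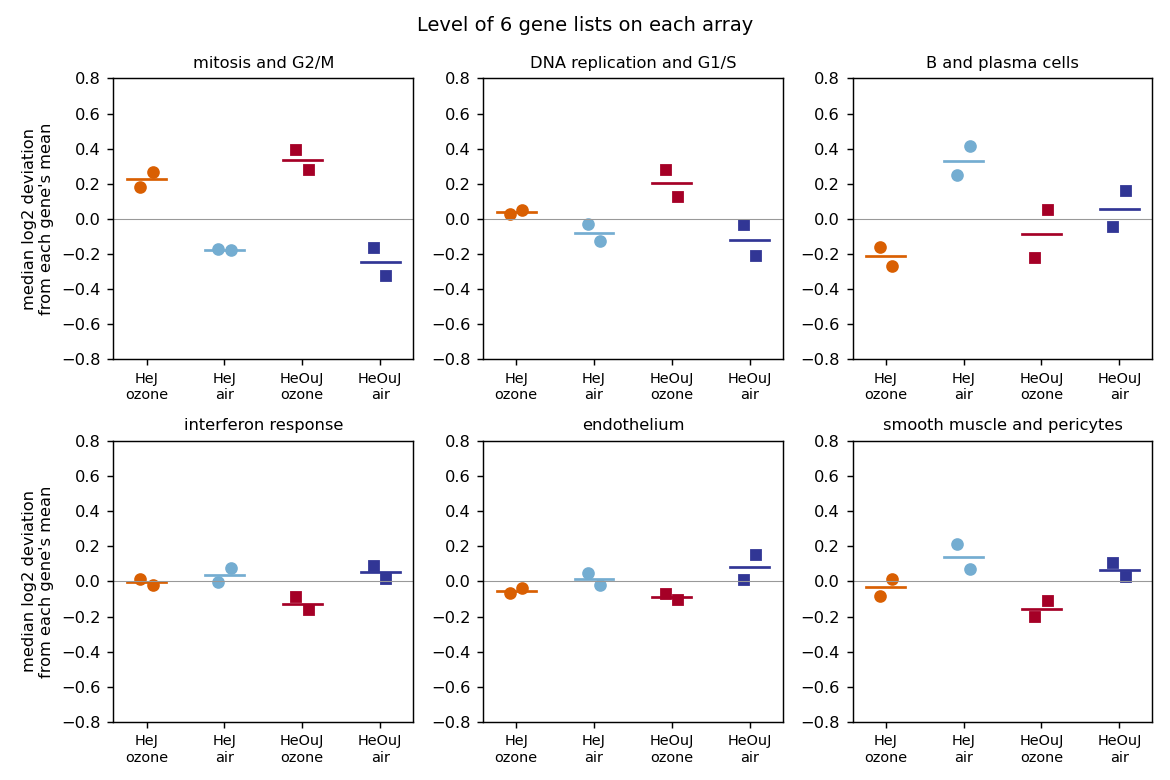
The level of 6 gene lists on each array, as the median over a list's genes of the log2 deviation from each gene's mean; ozone stands left of air within each substrain, and bars are means of 2 arrays. Mitosis and G2/M genes lie at 0.18 to 0.39 on ozone arrays and at -0.33 to -0.17 on air arrays, whereas the B and plasma cell markers lie at -0.27 to 0.05 on ozone arrays and at -0.05 to 0.41 on air arrays.

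Keratins 8 and 18 pair in the filaments of simple epithelia. Krt8 read 4611 and 3760 on HeJ ozone arrays and 5474 and 6792 on HeOuJ ozone arrays, against 3632 and 3334 on HeJ air arrays and 3096 and 3031 on HeOuJ air arrays. Every ozone array lay above every air array, by little in HeJ and by more in HeOuJ, and the log2 fold change of 0.63 (SE 0.11) had an adjusted p of 0.179 in limma. Krt18 read 1434 and 1139 on HeJ ozone arrays and 2505 and 3029 on HeOuJ ozone arrays, against 1083 and 1181 on HeJ air arrays and 919 and 817 on HeOuJ air arrays. HeJ ozone and HeJ air overlapped, and the mean log2 fold change of 0.92 (SE 0.12, adjusted p = 0.0781 in limma) was made of 0.18 in HeJ and 1.67 in HeOuJ. Krt7 and Krt19 are also keratins of simple epithelia. On the log2 scale Krt7 differed by 0.35 (SE 0.10), with 0.02 in HeJ, and Krt19 by 0.37 (SE 0.11), with -0.03 in HeJ. Of 12 keratins tested, 7 were higher and 5 lower (median 0.13), and 6 were higher under quantile normalization or median centring. Their median was 0.25 with the 5'/3' ratio in the model, and leaving out each array it ran from 0.08, without array 1a of HeOuJ ozone, to 0.27, without array 1b of HeOuJ ozone. With the floor at the 10th percentile the median was 0.20, with 8 of 12 higher. At the 30th percentile it was 0.01, with 6 of 11 higher. Mesothelium also makes Krt8, Krt18 and Krt19. The 8 mesothelial markers summed to 13365 to 22459 on ozone arrays and 11741 to 14456 on air arrays. This sum includes these keratins, so it is not a separate measure of mesothelium. The other 5 mesothelial markers ran from -0.16 for Upk3b to 0.51 for Rspo1, both named for this check alone. The part of mesothelium in the keratin values was not tested.

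Among 31 genes of tight and adherens junctions, 19 were higher and 12 lower, with a median of 0.06. The median was -0.02, with 12 higher, without array 1b of HeOuJ ozone, and 0.01 with the 5'/3' ratio in the model. Tjp1, the scaffold ZO-1 beneath tight junctions, read 6963 and 5780 on HeJ ozone arrays and 2657 and 2952 on HeOuJ ozone arrays, against 4867 and 7021 on HeJ air arrays and 6650 and 6608 on HeOuJ air arrays. It was lower in HeOuJ ozone than in all other groups, and its mean log2 fold change was -0.56. Its other probe set lay at the floor on 4 air and 2 ozone arrays and gives no usable fold. Gja1, the gap junction protein connexin 43, averaged 7519 ± 798 in ozone and 5749 ± 1182 in air (SD, 4 arrays each), a log2 fold change of 0.41. Neither passed.

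On the lower side no probe set passed. The 10 named ones of smallest p were Lyve1, Limch1, Igkv6-23, Wnk1, Chil3, Nr4a1, Lrrc8a, Igha, Atad1 and Ece1, with adjusted p-values between 0.0544 and 0.16 in limma. Lyve1, the hyaluronan receptor of lymphatic endothelium and of some macrophages, read 1258 and 1212 on HeJ ozone arrays and 830 and 977 on HeOuJ ozone arrays, against 1729 and 1861 on HeJ air arrays and 2058 and 1998 on HeOuJ air arrays. Every ozone array lay below every air array in both substrains. The means were 1069 ± 202 in ozone and 1912 ± 147 in air (SD, 4 arrays each), with a log2 fold change of -0.85 (SE 0.10, adjusted p = 0.0544 in limma). Chil3, a lectin related to chitinases that alveolar macrophages make, read 2062 and 1730 on HeJ ozone arrays and 2719 and 2459 on HeOuJ ozone arrays, against 3060 and 2738 on HeJ air arrays and 7031 and 4978 on HeOuJ air arrays. Each ozone array lay below the air arrays, and the log2 fold change was -0.91 (SE 0.13, adjusted p = 0.0893 in limma). The 25 macrophage and monocyte markers were mixed: 11 were higher and 14 lower, the median was -0.11 (-0.10 to -0.05 leaving out each array and -0.21 with the 5'/3' ratio in the model), and they summed to 59868 to 84722 on ozone arrays and 66500 to 84806 on air arrays.

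Nr4a1, a nuclear receptor of the immediate early class, read 755 and 753 on HeJ ozone arrays and 1182 and 1218 on HeOuJ ozone arrays, against 1402 and 1364 on HeJ air arrays and 1604 and 1717 on HeOuJ air arrays. Its log2 fold change of -0.67 (SE 0.10) was larger in HeJ (-0.88) than in HeOuJ (-0.47), a difference that did not pass (adjusted p = 0.489 in limma). Lrrc8a, a subunit of the volume-regulated anion channel, averaged 1598 ± 497 in ozone and 2436 ± 195 in air (SD, 4 arrays each), with no overlap. Limch1, which activates non-muscle myosin, had a log2 fold change of -0.78 (SE 0.10) at one probe set and 0.19 (SE 0.14) at a brighter one. Atad1, an ATPase that extracts proteins from mitochondrial membranes, and Ece1, the enzyme that releases endothelin, had -0.71 and -0.61, of which -0.14 and -0.25 was seen in HeJ and -1.29 and -0.97 in HeOuJ.

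The B and plasma cell list held 14 genes, 12 lower and 2 higher, with a median of -0.34. In HeJ the median was -0.61, and in HeOuJ, where 7 of the 14 were higher, it was -0.05. The model with the 5'/3' ratio gave 11 lower and a median of -0.21. No member passed. Igkv6-23, a kappa light chain variable segment, read 3177 and 3035 on HeJ ozone arrays and 4201 and 5323 on HeOuJ ozone arrays, against 8022 and 8817 on HeJ air arrays and 5203 and 6742 on HeOuJ air arrays. HeJ ozone lay far below HeJ air, whereas 1 HeOuJ ozone array lay within the HeOuJ air range. The log2 fold changes were -1.44 in HeJ and -0.32 in HeOuJ, with a mean of -0.88 (SE 0.12, adjusted p = 0.0805 in limma). The difference between the substrains did not pass (adjusted p = 0.184 in limma). Igha, the constant region of IgA, read 1804 and 1515 on HeJ ozone arrays and 3614 and 5056 on HeOuJ ozone arrays, against 3646 and 3868 on HeJ air arrays and 5507 and 5478 on HeOuJ air arrays. Its mean log2 fold change was -0.77 (SE 0.12), and a dimmer probe set gave -0.14 (SE 0.26), while its remaining probe set lay at the floor on 6 of 8 arrays. Probe sets of immunoglobulin segments can bind related segments, so the single names are uncertain. Jchain, which joins IgA into dimers, had -0.45 (SE 0.15). The 14 markers summed to 31110 to 37501 on ozone arrays and 36241 to 51341 on air arrays.

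Of 25 endothelial markers, 18 were lower and 7 higher (median -0.11, with -0.04 in HeJ and -0.20 in HeOuJ). They summed to 99522 to 101799 on ozone arrays and 101914 to 112805 on air arrays, ranges that do not overlap but nearly meet. Without array 1a of HeJ air the count was 13 lower and 12 higher, with a median of -0.04, and without array 1b of HeJ air the median was -0.20. On the log2 scale the angiopoietin receptor Tek differed by -0.28 (SE 0.10), with -0.06 in HeJ and -0.51 in HeOuJ. The sialomucin Emcn differed by -0.27 (SE 0.10), with 0.13 in HeJ and -0.67 in HeOuJ. Flt4, the receptor for the lymphatic growth factors, had -0.67 (SE 0.19), with -0.01 in HeJ and -1.32 in HeOuJ, and 0.22 at its other probe set. Of 15 smooth muscle and pericyte markers, 12 were lower and 3 higher (median -0.17), with sums of 23547 to 26199 on ozone arrays and 26234 to 28761 on air arrays. The median was -0.10 without array 1a of HeJ air, and 9 of 15 were lower with the 5'/3' ratio in the model. Cnn1, or calponin, read 708 to 904 on ozone arrays and 1043 to 1456 on air arrays, and its log2 fold change was -0.50 (SE 0.13). Mylk, the myosin light chain kinase, had -0.28, with -0.01 in HeJ and -0.55 in HeOuJ. Rgs5, a pericyte marker, had -0.74, with -0.02 in HeJ and -1.47 in HeOuJ, and a dimmer Rgs5 probe set, at the floor on 3 of 8 arrays, had 0.26 (SE 0.25). None of these passed.

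Neutrophil markers were mixed. Of 15 tested, 11 were higher and 4 lower (median 0.20), but with the 5'/3' ratio in the model 7 were higher and the median was -0.04. The median was -0.11 in HeJ and 0.21 in HeOuJ, and 8 were higher with the floor at the 10th percentile. Leaving out each array gave medians from 0.08, without array 1a of HeOuJ ozone, to 0.27. The 2 calprotectin subunits, which are among the most abundant neutrophil transcripts, were lower in ozone. S100a8 read 1506 to 2008 on ozone arrays and 2269 to 2936 on air arrays, without overlap, and its log2 fold change was -0.53 (SE 0.11). S100a9 had -0.49 (SE 0.15). The 15 markers summed to 9031 to 11110 on ozone arrays and 9416 to 10554 on air arrays.

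Chemokines and cytokines also differed in direction from one another. Of 31 chemokines and receptors, 12 were higher and 19 lower (median -0.12). That direction was lost without array 1a of HeJ ozone (15 higher and 14 lower, median 0.0057) and with the 5'/3' ratio in the model (16 higher and 15 lower, median 0.03). Ccl8, which attracts monocytes, read 333 and 135 on HeJ ozone arrays and 96.1 and 284 on HeOuJ ozone arrays, against 55.8 to 73.6 on air arrays, where 3 of 4 lay below the floor. Its log2 fold change was 1.41 (SE 0.40). Ccl9, another attractant of myeloid cells, averaged 588 ± 119 in ozone and 1139 ± 255 in air (SD, 4 arrays each), a log2 fold change of -0.95 (SE 0.18). Cxcl13, which draws B cells into follicles, had -0.92 (SE 0.30). None of the 3 passed, although the arrays of each did not overlap.

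Il1b, the main fever cytokine of macrophages, read 139 and 230 on HeJ ozone arrays and 176 and 222 on HeOuJ ozone arrays, against 374 and 321 on HeJ air arrays and 470 and 328 on HeOuJ air arrays. The arrays did not overlap, and the log2 fold change was -0.96 in HeJ and -0.99 in HeOuJ. Tnf read 51.3 and 57.1 on HeJ ozone arrays and 231 and 247 on HeOuJ ozone arrays, against 63.8 and 55.9 on HeJ air arrays and 103 and 73.4 on HeOuJ air arrays. All 4 HeJ arrays lay below the floor, so that its mean log2 fold change of 0.73 (SE 0.21) came from HeOuJ. Il6 was above the floor on the 2 HeOuJ ozone arrays alone, at 152 and 81, and on no air array, so no fold is given. Cxcl2, a neutrophil attractant, read 59.8 to 111 on ozone arrays and 17.8 to 167 on air arrays. Interferon response genes were lower in 28 of 35 cases and higher in 7 (median -0.22, and -0.14 without array 1b of HeOuJ ozone), yet the smallest p-values belonged to genes on either side. Ifit3 and Ifi27, both induced by interferon, had 0.46 (SE 0.13) and 0.43 (SE 0.12), and the transcription factor Irf8 had -0.31 (SE 0.11).

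Of 55 antioxidant, glutathione and metallothionein genes, 34 were higher and 21 lower, and the median was 0.10, with 0.00 in HeJ and 0.21 in HeOuJ. It was 0.06, again with 34 higher, when the 5'/3' ratio was in the model. Mgst3, a membrane-bound glutathione transferase, was alike in the substrains, at 0.48 in HeJ and 0.55 in HeOuJ, and averaged 2586 ± 584 in ozone and 1802 ± 365 in air (SD, 4 arrays each). Gsto1, the omega class transferase that reduces dehydroascorbate, read 2616 to 4310 on ozone arrays and 2206 to 2555 on air arrays, without overlap (log2 fold change 0.49, SE 0.10). Akr1b8, an aldose reductase that clears aldehydes, had 0.50 (SE 0.11), of which 0.13 was seen in HeJ and 0.87 in HeOuJ. Gpx3, a secreted glutathione peroxidase, was lower: it read 11790 to 16210 on ozone arrays and 18027 to 24458 on air arrays, a log2 fold change of -0.56 (SE 0.13). Of the classic targets of the oxidant sensor Nrf2, Hmox1 had 0.20 (SE 0.10), and the 2 probe sets of Nqo1 disagreed: the slightly brighter one had -0.09 (SE 0.44) and the other 0.86 (SE 0.29), with 0.02 in HeJ and 1.70 in HeOuJ. On the log2 scale Mt1 differed by 0.20 (SE 0.11) and Mt2 by 0.17 (SE 0.10), both metallothioneins. No member passed.

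Of 29 glucocorticoid response genes, 18 were lower and 11 higher (median -0.14), and of 32 immediate early genes 22 were lower and 10 higher (median -0.09). With the 5'/3' ratio in the model 14 and 18 were lower, with medians of 0.0086 for the glucocorticoid and -0.06 for the immediate early list. Without array 1a of HeOuJ air the glucocorticoid median was -0.09. With all arrays that median was -0.13 in HeJ and -0.21 in HeOuJ. The immediate early median was 0.0055 in HeJ, where 16 of 32 were higher, and -0.22 in HeOuJ, where 9 were higher. Dusp1, a phosphatase that switches off MAP kinases and belongs to both lists, read 7702 to 8660 on ozone arrays and 9884 to 12068 on air arrays, without overlap, and had a log2 fold change of -0.36 (SE 0.10). Errfi1, which damps signalling by the EGF receptor and is also in both lists, had -0.33 (SE 0.08) at its brighter probe set and -0.03 (SE 0.24) at its other. Klf4 had -0.92 (SE 0.20), but -0.04 in HeJ and -1.80 in HeOuJ.

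Of 57 subunits of oxidative phosphorylation, 42 were higher and 15 lower, and 25 of 35 proteasome subunits were higher. These shifts were small, with medians of 0.08 and 0.14, and the first was 0.00 in HeJ and 0.18 in HeOuJ. With the 5'/3' ratio of the controls in the model, 28 of the 57 were higher and their median was -0.03, while 20 of the 35 were higher with a median of 0.06. Without array 1b of HeOuJ air the first median was 0.05, and without array 1a of HeOuJ air it was 0.14. Cox6c of cytochrome oxidase differed by 0.51 on the log2 scale (SE 0.11), with 2 dimmer probe sets, each at the floor on 2 of 8 arrays, at -0.63 (SE 0.61) and -0.01 (SE 0.34). Psma7 of the proteasome core had 0.48 (SE 0.11), with 0.04 in HeJ and 0.93 in HeOuJ. Sec61b of the translocon had 0.54 (SE 0.13), with 0.14 in HeJ and 0.94 in HeOuJ. Among 54 extracellular matrix genes, 33 were lower and 21 higher (median -0.07). The direction turned with the 5'/3' ratio in the model, to 22 lower and 32 higher (median 0.04), and leaving out each array gave medians from -0.15, without array 1a of HeOuJ air, to -0.02, without array 1b of HeOuJ air. Mgp, the matrix Gla protein that keeps cartilage and vessels from calcifying, read 11454 to 17268 on ozone arrays and 8203 to 11435 on air arrays, with a log2 fold change of 0.62 (SE 0.11). No member of these lists passed.

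**Figure D4:**
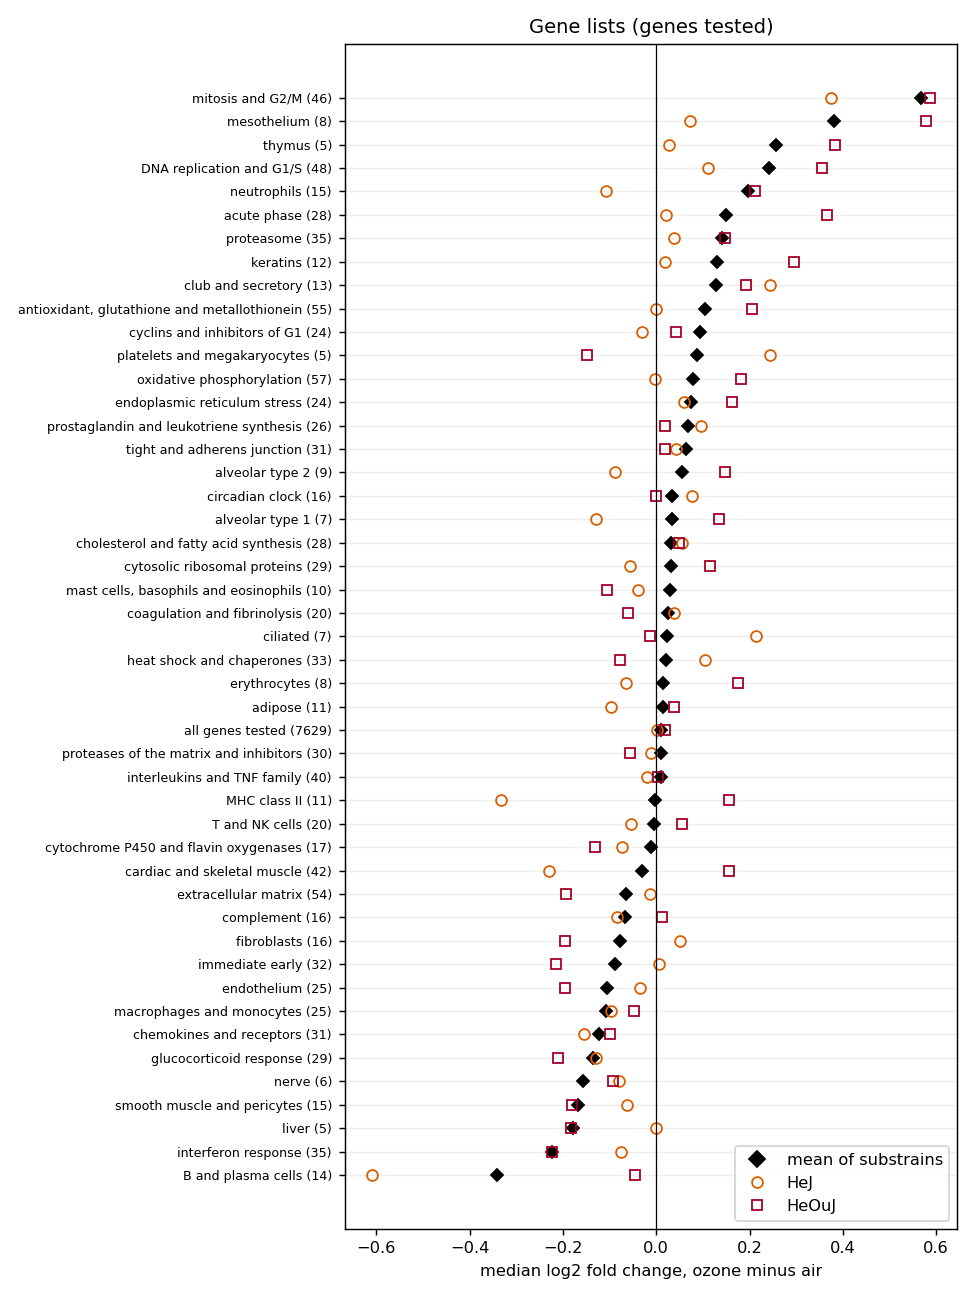
The median log2 fold change, ozone minus air, of each gene list and of all genes tested (number of genes tested in brackets), as the mean of the substrains (black), in HeJ (round) and in HeOuJ (square). Mitosis and G2/M lies at 0.57, all genes tested at 0.01, and B and plasma cells at -0.34.

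Several average effects stood for unlike values in the 2 substrains. Wnk1, a kinase that regulates chloride transporters, read 7107 and 6856 on HeJ ozone arrays and 2107 and 2555 on HeOuJ ozone arrays, against 5572 and 6536 on HeJ air arrays and 7494 and 7068 on HeOuJ air arrays. Its mean log2 fold change of -0.72 (SE 0.10) was made of 0.21 in HeJ and -1.65 in HeOuJ, and the difference of -1.86 missed the threshold (adjusted p = 0.0509 in limma). Its other 2 probe sets gave -0.10 and 0.02. Of 33 heat shock and chaperone genes tested, 19 were higher and 14 lower, with a median of 0.02 (0.10 in HeJ and -0.08 in HeOuJ). With the 5'/3' ratio in the model 12 were higher and the median was -0.13. Within this list, Hspa1a and Hspa1b, the inducible Hsp70 chaperones, had mean log2 fold changes of -0.86 and -0.74. For Hspa1a, the effect was 0.44 in HeJ and -2.16 in HeOuJ, and the HeOuJ ozone arrays read 424 and 485, against 1961 and 2095 on the HeOuJ air arrays. The summed intensity of the list was highest on the HeOuJ air arrays, at 75458 and 68357. It was 54656 and 55317 on HeJ air arrays and 59765 to 62257 on the ozone arrays of both substrains. Hsp90aa1 had 0.20 in HeJ and -1.06 in HeOuJ. For none of these was the difference between substrains past the threshold.

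**Figure D5:**
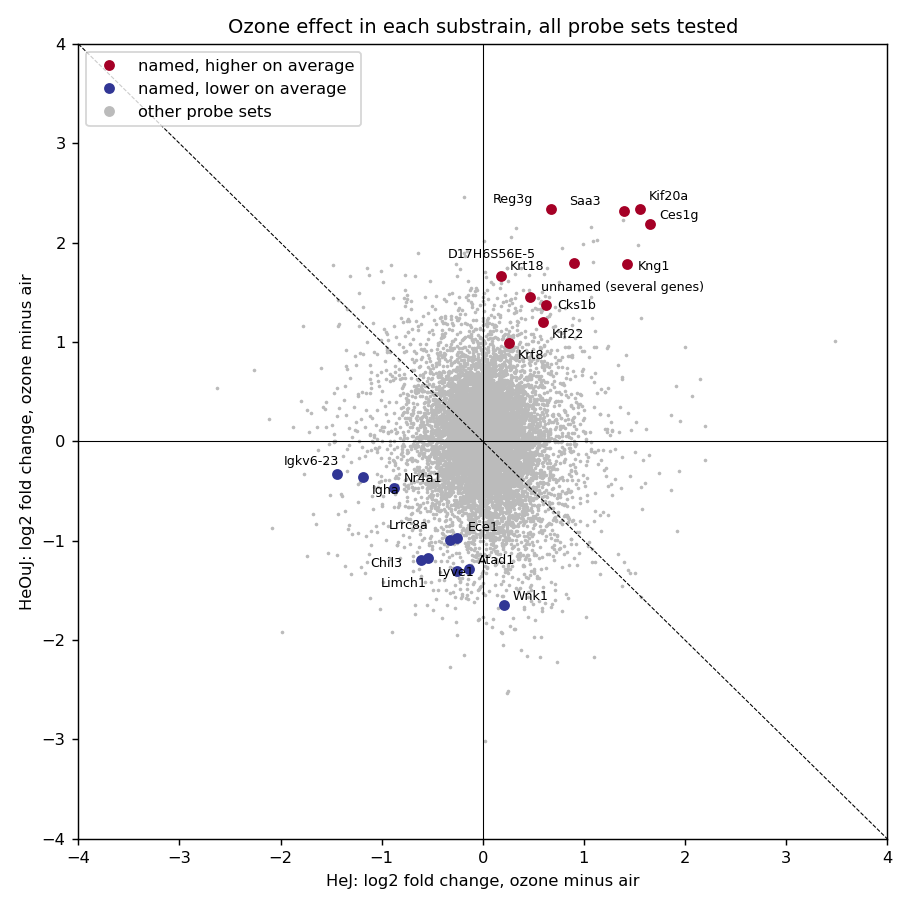
Each point is 1 of 10953 probe sets, with its log2 fold change, ozone minus air, in HeJ on the horizontal and in HeOuJ on the vertical axis; on the dashed line the mean effect is 0. The red and blue points are the 21 probe sets of the plot by array: Saa3, Ces1g, Kif20a and Kng1 lie at 1.39 or more in both substrains, Krt18 and Wnk1 lie far from 0 in HeOuJ alone, and Igkv6-23 lies farther from 0 in HeJ.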

How the data were processed

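RNA from 8 mouse lung samples had been hybridised to Affymetrix arrays. The authors deposited linear intensity values, 1 for each probe set of an array. Their 2% trimmed mean was 800.4 on every array, which shows that the authors had scaled the arrays to each other, by software not given in the sources used here. Such scaling removes any overall difference between arrays. No detection calls were used, so a dim probe set is judged by the floor alone.

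Of 12488 probe sets, 66 controls were set aside. The floor was the 20th percentile of all values (69.63, or 6.12 on the log2 scale). Each lower intensity was set to this floor before the change to log2. The 1469 probe sets above the floor on fewer than 2 of 8 arrays were left out, Marco among them. Names came from an array annotation of 2016, updated through gene identifiers to RefSeq (10817 matched): 10833 probe sets had 1 gene, 396 several and 1193 none. For gene lists the probe set of highest mean stood for a gene.

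A linear model with 1 mean for each of the 4 groups was fitted to all 8 arrays with limma 3.58.1 (R 4.3.3, eBayes with an intensity trend), with 4 residual and 4.54 prior degrees of freedom. The mean ozone effect gave each substrain equal weight, and its median standard error was 0.21 on the log2 scale, so the number of arrays limits the precision. Adjusted p-values are Benjamini-Hochberg over the 10953 probe sets, with a threshold of 0.05. The code was run on simulated data with independent normal errors at the fitted variances and no substrain difference. Such a run checks the code and cannot show how the model fares with technical replicates or unlike substrains. The genes named were the 10 of smallest p in each direction, up to 3 of smallest p in a list and a set followed throughout, and exceptions are stated. The comparison, lists and genes were chosen with earlier results of these data known. Alternatives covered scaling, floor, filter, variance model, terms of the model, array weights, threshold and the omission of each array. Python 3.11.15 with pandas 2.3.3 and matplotlib 3.10.9 drew the figures.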

Additional observations from a re-analysis of the deposited data

Results flagged for a closer look

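In 162 groups of 4 ozone or 4 air arrays of a gene named above, all above the floor, 6 held an array that stood far from the other 3 by Dixon's criterion at its 95% critical value, where chance gives about 1 in 20 groups. Kif20a read 420 on array 1b of HeOuJ ozone, against 295 to 307 on the other ozone arrays. Ect2 read 266 on array 1a of HeOuJ ozone, against 174 to 187. Jchain read 1040 on array 1a of HeJ ozone, against 798 to 835. On the air side, array 1a of HeJ was apart for both Tjp1, at 4870 against 6610 to 7020, and Cnn1, at 1460 against 1040 to 1090. Ccnd1 read 2550 on array 1a of HeOuJ air, against 3200 to 3220 on the other air arrays. The cause was not tested for any of them.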

How the results depend on the processing

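The count of 2 probe sets past the threshold for the mean ozone effect depended on the processing. It was 0 under median centring, with no intensity trend of the variance, in the additive model, with exposure alone in the model, with the 5'/3' control ratio as a covariate and with array weights. It was 2 under quantile normalization and 3 with a robust variance prior. With the floor at the 10th or the 30th percentile it was 5, 3 higher and 2 lower, both times with Saa3, Lyve1 and Limch1 among them. Without a filter it was 14, 8 higher and 6 lower, and 1 of the original 2 was kept. For probe sets above the median level it was 10, 5 in each direction. At an adjusted p of 0.1 it was 13, 6 higher and 7 lower. Leaving out each array gave 0 to 1. The count for the difference between substrains cannot be fitted in the additive model or with exposure alone. It was 0 in the other settings not named here, and was 3 under quantile normalization, 3 with either other floor, 10 without a filter, 9 above the median level, 3 at a threshold of 0.1 and, leaving out each array, 0 to 10, the 10 without array 1b of HeJ air. The cause was not tested.

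The array names end in a or b without a stated meaning, and these letters were tried as a replicate block. The differences between a and b correlated at -0.01 to 0.14 between groups, so the letters were not taken as pairs. With the block the mean effect gave 0 calls, with a smallest adjusted p of 0.064 in limma, and the difference between substrains gave 0.

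Among named genes, 18 of the log2 fold changes under an alternative had the opposite sign, all of genes that did not pass. Scgb1a1 was -0.028 under quantile normalization and -0.37 with the 5'/3' ratio. Timp1 was -0.018 under median centring and -0.064 to 0.083 leaving out each array. Nqo1 was 0.011 with the floor at the 30th percentile, 0.43 with the 5'/3' ratio and -0.51 to 0.34 leaving out each array. With the 5'/3' ratio Mt2 was -0.066, Hmox1 -0.046, Mt1 -0.044, Ect2 -0.23 and Upk3b 0.092. Mki67 was -0.29 to 0.062 leaving out each array. The median of all probe sets stayed between -0.02 and 0.03 in every setting.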
